A study of Mus musculus with 6 samples.

Results

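Aquaporins are membrane channels that carry water, and some of them glycerol, along a gradient. This report follows the 7 aquaporin genes Aqp1, Aqp3, Aqp4, Aqp5, Aqp7, Aqp9 and Aqp11 in RNA-Seq data of mammary tumors and of mammary glands from the same mice. They were chosen by name, as members of the family, and all 7 were found among the 15280 genes of the deposited table. Aqp2 was the other aquaporin gene listed there, and its values are given apart.

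Each aquaporin is a small protein with its own pore, and the pores assemble in groups in the membrane. Aqp1, Aqp4 and Aqp5 are classical water channels. Aqp3, Aqp7 and Aqp9 are aquaglyceroporins, which also let glycerol through. Aqp11 is a distant member that sits mainly in membranes inside the cell. In the mammary gland, fat cells surround the epithelial ducts, and Aqp7 is known as the channel through which fat cells release glycerol when stored fat is broken down.

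The samples were a single mammary tumor and the normal mammary gland next to it from each of 3 BK5.ATF3 female mice, that is, 3 tumors and 3 normal glands. The glands are M11035, M11640 and M9232, the tumors of the same mice are T11035, T11640 and T9232, and values of single libraries or mice are given in this order throughout. All the mice carried the transgene, in which the keratin 5 promoter drives the stress-response transcription factor ATF3 in basal epithelial cells, so the normal glands are transgenic tissue too and not wild-type. The mice had raised 1 litter, tumors arose at 6 to 12 months of age, and tissue was taken when a tumor was 1.5 cm long. The labels give no age for a single mouse. Bulk tissue was sequenced, so fewer cells of a type and less RNA per cell cannot be told apart in any value below.

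The libraries held 4750989 to 7372155 fragments on genes in the glands and 5116883 to 7806908 in the tumors. Expression is given as CPM (fragments on the gene relative to the library's effective size), and 3 fragments correspond to 0.393 to 0.610 CPM depending on the library. The correlation of log2(CPM + 0.5) over all genes was 0.949 to 0.980 between libraries of the same tissue and 0.769 to 0.826 between tissues. Gland M9232 stood apart from the other glands: its 10 luminal and milk secretory markers summed to 41194 CPM, against 2450 and 4799 CPM, and its 10 skeletal muscle markers to 7.11 CPM, against 4792 and 1840 CPM. All 6 libraries were kept, and values without this gland are given where they change a call.

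Since ATF3 binds DNA at AP-1 and CRE motifs, the 250 bases before each annotated start were read for the members in RefSeq (assembly GRCm38.p6). Windows were found for 6 of the 7 members, 8 windows in all, and none was found for Aqp4. The windows of the 3 aquaglyceroporins, all of which differed between the tissues, are printed 5′ to 3′ on the gene's strand, with a motif match in capitals.
Aqp3, chr4:41098184-41098433, minus strand, with TATAAA in capitals: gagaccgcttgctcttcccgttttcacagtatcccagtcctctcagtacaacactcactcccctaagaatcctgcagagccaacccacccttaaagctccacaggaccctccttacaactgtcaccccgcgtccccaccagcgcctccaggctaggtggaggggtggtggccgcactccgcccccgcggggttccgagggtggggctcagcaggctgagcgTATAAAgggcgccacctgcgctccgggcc
Aqp7, second of its windows, chr4:41048137-41048386, minus strand, with no match: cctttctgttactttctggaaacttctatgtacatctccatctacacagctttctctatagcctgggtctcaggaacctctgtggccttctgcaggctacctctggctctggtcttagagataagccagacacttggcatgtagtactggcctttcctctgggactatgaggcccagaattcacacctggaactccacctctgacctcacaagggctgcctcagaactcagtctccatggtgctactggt
Aqp9, first of its windows, chr9:71162634-71162883, minus strand, with the AP-1 match TGAGTCA in capitals: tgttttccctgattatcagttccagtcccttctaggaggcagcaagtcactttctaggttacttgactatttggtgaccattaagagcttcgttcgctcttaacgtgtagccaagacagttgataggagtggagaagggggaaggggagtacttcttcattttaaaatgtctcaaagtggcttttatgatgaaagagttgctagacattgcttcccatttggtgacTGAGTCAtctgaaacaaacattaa
The match in Aqp9 began 24 bases before the start that belongs to the printed window. The other window of Aqp9 (chr9:71163290-71163539) lies upstream of it on the minus strand, before another annotated start, and held no match. The TATAAA of Aqp3 began 29 bases before the gene start. Both strands were searched for the AP-1 motif TGANTCA, the CRE motif TGACGTCA and TATAAA, and no match overlapped another. The AP-1 motif was found in 1 of the 8 windows of the 6 members, the CRE motif in 0 and TATAAA in 1. Among all 32851 promoter windows of this length, the shares holding these motifs were 6.75%, 1.55% and 12.4%. A match describes these letters and does not show that a factor binds there.

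In mm9, the build of the data, Aqp3 (chromosome 4, 41039755 to 41045216) and Aqp7 (chromosome 4, 40980107 to 40995172) were neighbors on the minus strand. A gap of 44582 bases lies between them, with 0 annotated genes in it. Aqp1 lies on chromosome 6 (55286426 to 55298549), Aqp9 on chromosome 9 (70958466 to 71016489) and Aqp11 on chromosome 7 (104874889 to 104886757). Aqp5 lies on chromosome 15 (99421280 to 99425260), and Aqp4 on chromosome 18 (15547903 to 15562193). Values are counts over all exons of a gene, and no annotated gene on either strand overlapped any of the members.

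Of the 7 aquaporins, 2 were higher in tumors (Aqp3 and Aqp9), 2 were lower (Aqp7 and Aqp11) and 3 were not called (Aqp1, Aqp4 and Aqp5). Calls needed a fold change of 2 or more together with an adjusted p no higher than 0.05. By the same rule 14.5% of all 15280 genes were called higher and 13.7% were called lower. The 3 tumors lay above all 3 glands for 2 aquaporins and below all 3 for 2, and the tissues overlapped for the other 3. Among all genes, the tumors lay above all glands for 27.6% and below all for 26.3%. The median log2 fold change over all genes was -0.0028, so the changes given here are relative to a center near 0. Aqp4 was the member that did not reach 1 CPM in at least 3 libraries.

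**Figure D1:**
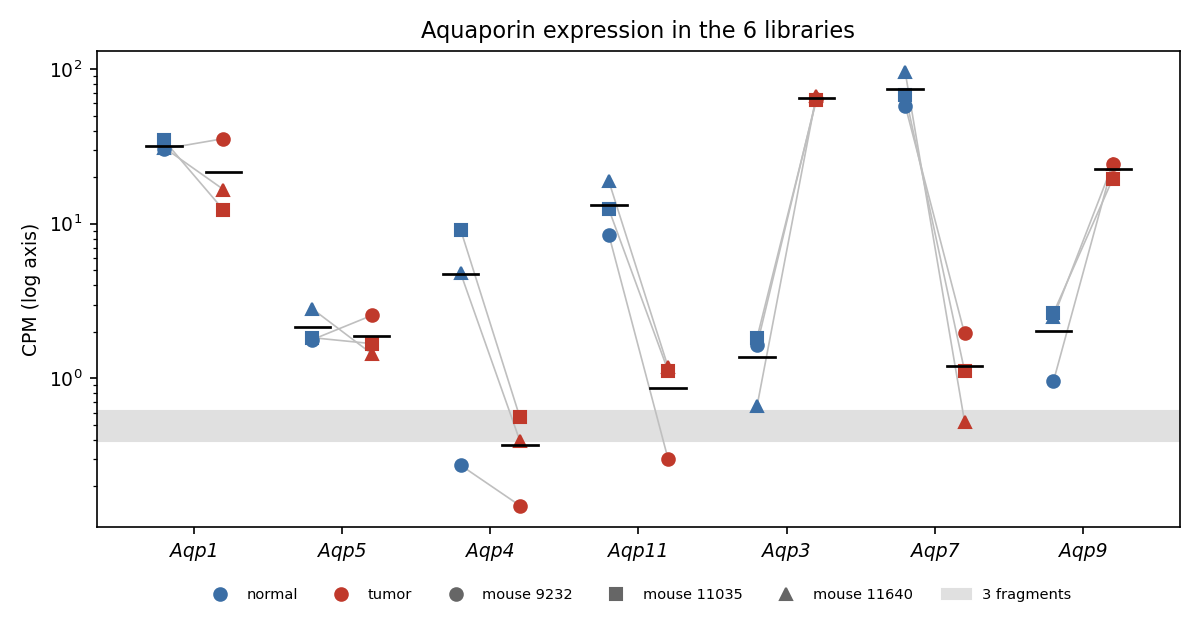
CPM of the 7 aquaporins in each library (vertical axis, logarithmic), with glands in blue, tumors in red, a symbol shape and a gray line for each mouse, and a black bar at the mean of each tissue (n = 3). The gray band marks 3 fragments (0.393 to 0.610 CPM); the tissues stand apart without overlap for Aqp3, Aqp7, Aqp9 and Aqp11, and the 3 tumors of Aqp4 lie in or under the band.

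Among the aquaglyceroporins, Aqp3 and Aqp9 rose and Aqp7 fell. Aqp3 is the water and glycerol channel of epithelia, known best from basal keratinocytes of the skin. It stood at 1.83, 0.661 and 1.64 CPM in the glands (9, 4 and 12 fragments). In the tumors of the same mice it stood at 62.9, 67.5 and 64.4 CPM (338, 515 and 430 fragments). Every tumor was far above every gland, and the tumors were close to each other. The means were 1.38 ± 0.628 and 64.9 ± 2.34 CPM (SD, n = 3), a ratio of 47.2, and the log2 fold change was 5.19 (SE 0.28, 95% interval 4.54 to 5.84, limma adjusted p = 5.56e-06). Aqp3 was higher in the tumor of each mouse, by 4.77, 5.87 and 4.92 on the log2 scale of CPM + 0.5.

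Markers of basal and squamous epithelium moved with Aqp3. Of the 10 fixed markers, 9 rose and 0 fell, and the median log2 fold change was 5.91. Their summed level was 110 to 152 CPM in the glands and 3915 to 5355 CPM in the tumors, and none was at 0 in any library. Krt5, the basal keratin, stood at 24.6 ± 13.3 CPM in glands and 986 ± 71.1 CPM in tumors (5.48 on the log2 scale, adjusted p = 2.02e-05). Krt10, a keratin of differentiated squamous cells, stood at 5.10 ± 1.62 and 997 ± 321 CPM (7.46, adjusted p = 1.22e-06). Dsc3, a desmosomal cadherin, was the marker not called, with 32.1 ± 16.0 CPM in glands and 165 ± 149 CPM in tumors. Log2 Aqp3 minus the mean log2 level of these markers was -1.41, -2.18 and -1.89 in the glands and -2.35, -2.65 and -2.26 in the tumors. The difference was -0.59 (exact two-sided permutation p = 0.1, the smallest that 3 against 3 can give; adjusted p = 0.18 over 9 such pairs). It was not past the threshold, and the tissues overlapped with a pseudocount of 0.1 or by the median of the list (-0.46 in both). Without gland M11035 the difference was -0.38. The part of these cells in the Aqp3 values was not tested.

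Aqp9 is known from liver, where it takes up glycerol, and from leukocytes including neutrophils. It stood at 2.64, 2.48 and 0.958 CPM in the glands (13, 15 and 7 fragments) and at 19.5, 24.2 and 24.3 CPM in the tumors (105, 185 and 162 fragments). The lowest tumor was well above the highest gland. The means were 2.03 ± 0.929 and 22.7 ± 2.73 CPM, a ratio of 11.2, and the log2 fold change was 3.27 (SE 0.32, 95% interval 2.53 to 4.01, adjusted p = 1.03e-04). The rise within the mice was 2.67, 3.05 and 4.09.

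Neutrophil markers rose in part. Of 10, 6 rose and 2 fell, with a median log2 fold change of 1.61, and their sum was 238 to 636 CPM in glands and 945 to 1543 CPM in tumors. S100a8, a calcium-binding protein abundant in neutrophils, had a log2 fold change of 4.34 (adjusted p = 2.90e-05), and Csf3r, the G-CSF receptor, of 2.38 (adjusted p = 1.47e-04). Ltf and Ngp, proteins of neutrophil granules, fell, with log2 fold changes of -2.97 and -2.96. Retnlg (-0.78, adjusted p = 0.204) and Camp (-1.07, adjusted p = 0.131) were not called, and both estimates were below 0. Lactoferrin, the product of Ltf, is also a milk protein. Of 10 macrophage markers, 1 rose (Msr1, a scavenger receptor, log2 fold change 2.46) and 1 fell (Cd163, another scavenger receptor, -2.28), and the sums overlapped, at 303 to 1058 CPM in glands and 754 to 1176 CPM in tumors. None of these markers was at 0 in any library. Log2 Aqp9 relative to the neutrophil markers was -2.61, -1.83 and -3.37 in glands and -0.36, -0.31 and -0.33 in tumors. All tumors lay above all glands in this ratio, with a difference of 2.27 (exact permutation p = 0.1, adjusted p = 0.18), and relative to the macrophage markers the difference was 2.88 (exact permutation p = 0.1, adjusted p = 0.18). By the median of the neutrophil list instead of its mean the difference was 1.07. The part of either cell type in the Aqp9 values was not tested.

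Aqp7, the glycerol exit channel of fat cells, was the aquaporin with the highest CPM in the glands. It stood at 68.5, 95.3 and 58.0 CPM there (337, 577 and 424 fragments). In the tumors it stood at 1.12, 0.524 and 1.95 CPM (6, 4 and 13 fragments), a little above the level of 3 fragments. The tissues were far apart. The means were 73.9 ± 19.2 and 1.20 ± 0.715 CPM, so the gland mean was 61.8 times the tumor mean. The log2 fold change was -5.51 (SE 0.34, 95% interval -6.29 to -4.74, adjusted p = 9.46e-06), and Aqp7 was lower in the tumor of each of the 3 mice, with -5.42, -6.55 and -4.58. Stretches of 50 bases of Aqp7 transcripts were shared with 64 other genes, with at most 24 such stretches shared with any 1 of them, so some of its few tumor fragments may be uncertain. The other members shared no stretch of 50 bases with another gene.

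Adipocyte markers moved with Aqp7. All 10 fell, with a median log2 fold change of -5.95, and their sum was 5410 to 9731 CPM in the glands and 225 to 328 CPM in the tumors. None was at 0 in any library. Adipoq, the fat cell hormone adiponectin, went from 413 ± 153 to 2.94 ± 1.65 CPM. Log2 Aqp7 minus the mean of these markers was -1.83, -1.66 and -1.40 in glands and -1.46, -2.48 and -0.47 in tumors. These values overlapped, with a difference of 0.16 (exact permutation p = 0.8, adjusted p = 0.8). The part of fat cells in the fall of Aqp7 was not tested.

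**Figure D2:**
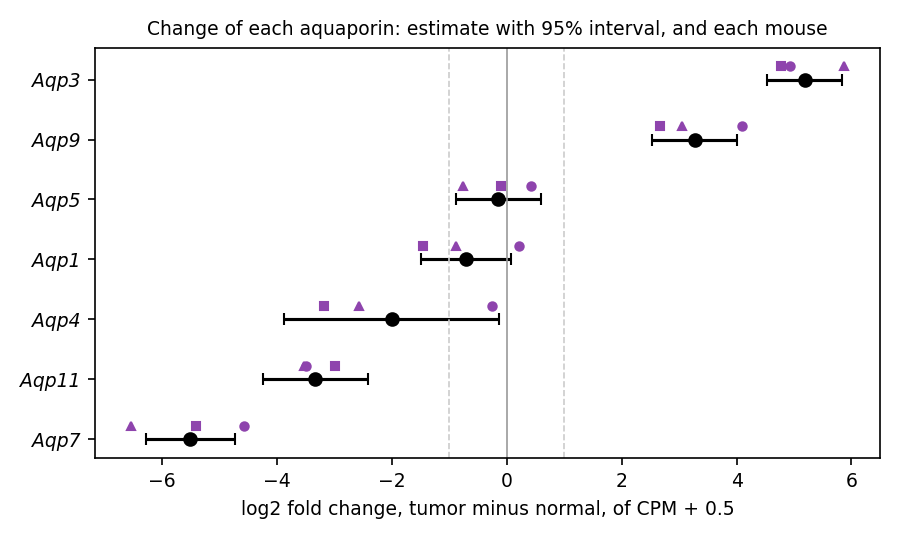
Log2 fold change of CPM + 0.5, tumor minus normal (horizontal axis), for each aquaporin: the black point and bar give the limma estimate and its 95% interval (n = 3 per tissue), and the purple symbols the difference within each mouse (a shape for each mouse, as in the plot of CPM by library). Dashed lines mark a 2-fold change; Aqp3 (5.19) and Aqp9 (3.27) lie to the right, Aqp7 (-5.51) and Aqp11 (-3.34) to the left, and the intervals of Aqp1 and Aqp5 include 0.

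Genes that release and use glycerol in fat tissue were listed apart. Of 14 genes, 13 were in the table by their symbol: 12 fell, 0 rose and 1 was not called, and the median log2 fold change was -3.66. Pnpla2, the lipase that begins the breakdown of stored fat, fell from 226 ± 44.8 to 7.57 ± 2.73 CPM (-4.86 on the log2 scale, adjusted p = 6.97e-06). Lipe, the hormone-sensitive lipase that acts after it, fell from 108 ± 31.9 to 10.9 ± 2.72 CPM (-3.23, adjusted p = 3.72e-05). Mgll, which frees the glycerol itself, fell from 140 ± 47.0 to 11.4 ± 3.32 CPM (-3.54, adjusted p = 3.11e-05). Larger falls were those of Pck1, an enzyme of glycerol-3-phosphate synthesis in fat cells (-8.43), Gpd1, the cytosolic glycerol-3-phosphate dehydrogenase (-7.62), and Plin1, a coat protein of fat droplets (-6.38).
The gene not called was Abhd5, the activator of Pnpla2, with 211 ± 62.5 CPM in glands and 151 ± 27.3 CPM in tumors (-0.45, adjusted p = 0.177). Gk, glycerol kinase, which traps glycerol in the cell, was in the table as Gyk. Its levels were 55.4 ± 17.3 and 83.3 ± 25.9 CPM, with a log2 fold change of 0.57 (adjusted p = 0.146), so it did not pass the test.

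Of the classical water channels, none was called. Aqp1 is the water channel of red blood cells and of the endothelium of many vessels. It stood at 34.6, 31.1 and 30.5 CPM in the glands (170, 188 and 223 fragments) and at 12.3, 16.6 and 35.5 CPM in the tumors (66, 127 and 237 fragments). The glands were close together, and the tumors were not: tumor T9232 was above every gland and the other tumors below them. The means were 32.0 ± 2.20 and 21.5 ± 12.3 CPM, and the log2 fold change was -0.71 (SE 0.34, 95% interval -1.49 to 0.07, adjusted p = 0.132). Within the mice the difference was -1.46, -0.88 and 0.22. Without tumor T9232 the log2 fold change was -1.13 with an adjusted p of 0.00691, past the threshold.

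Of 10 endothelial markers, 3 fell (Kdr, Tek and Vwf) and 0 rose, with a median log2 fold change of -0.49. Kdr is a VEGF receptor and Tek the angiopoietin receptor. The summed level of the markers was 396 to 537 CPM in the glands and 235, 283 and 326 CPM in the tumors, lowest in T11035 and highest in T9232 like Aqp1. None was at 0 in any library. Log2 Aqp1 minus the mean of these markers was 0.34, -0.13 and 0.28 in glands and -0.43, -0.18 and 0.70 in tumors, which overlapped (difference -0.13, exact permutation p = 0.8, adjusted p = 0.8). By the median of the list the difference was -0.52, and the tissues still overlapped. Of 10 red blood cell markers, 1 was in the table (Alas2, the erythroid enzyme of heme synthesis), and it was not called. Log2 Aqp1 minus Alas2 differed by -0.30 between the tissues (exact permutation p = 0.7). The part of vessels or of blood in the Aqp1 values was not tested.

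Aqp4 is the water channel of astrocyte end-feet and of the membrane of fast skeletal muscle fibers. It stood at 9.15, 4.79 and 0.274 CPM in the glands (45, 29 and 2 fragments) and at 0.558, 0.393 and 0.150 CPM in the tumors (3, 3 and 1 fragments). Glands M11035 and M11640 were well above the rest. Gland M9232 lay among the tumors, and it and all 3 tumors were at or under 3 fragments. The means were 4.74 ± 4.44 and 0.367 ± 0.205 CPM, and the log2 fold change was -2.00 (SE 0.82, 95% interval -3.87 to -0.13, adjusted p = 0.0822), which did not pass the test. Pooled over each tissue, the glands held 76 fragments and the tumors 7, a ratio of 11.7 after division by library size. Its exact 95% interval of 5.40 to 30.05 covers counting error only. With the mouse as a block the adjusted p was 0.0359, and without gland M9232 the log2 fold change was -3.07 with an adjusted p of 7.71e-04.

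Skeletal muscle markers varied among the glands as Aqp4 did. The sum of the 10 markers was 4792, 1840 and 7.11 CPM in the glands and 23.8, 9.70 and 18.0 CPM in the tumors. Of the 10, 3 fell and 0 rose, with a median log2 fold change of -3.93, but 10 were called lower without gland M9232 and 0 without any 1 of the other libraries. In that gland Acta1, Ckm, Actn3 and Pvalb were at 0, while Myh4, a fast muscle myosin, stood at 2779 and 1107 CPM in the other glands. Log2 Aqp4 minus the mean of these markers was -4.51, -4.00 and -0.38 in the glands and -0.92, -0.19 and -1.23 in the tumors. These overlapped through gland M9232 (difference 2.19, exact permutation p = 0.3, adjusted p = 0.45). Without that gland the difference was 3.48 with no overlap, and without gland M11035 it was 1.41. The part of muscle in the Aqp4 values was not tested.

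Aqp5 is the water channel of the apical membrane of salivary, lacrimal and sweat glands. It stood at 1.83, 2.81 and 1.78 CPM in the glands (9, 17 and 13 fragments) and at 1.67, 1.44 and 2.55 CPM in the tumors (9, 11 and 17 fragments). The ranges overlapped almost fully. The means were 2.14 ± 0.580 and 1.89 ± 0.583 CPM, and the log2 fold change was -0.15 (SE 0.32, 95% interval -0.89 to 0.59, adjusted p = 0.744). On this log2 scale, which includes the pseudocount, the interval does not reach a 2-fold change in either direction. The scale understates changes of genes this low, so the interval does not exclude a 2-fold change in CPM itself. Within mice the difference was -0.10, -0.77 and 0.42.

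Milk secretory genes differed much more between the samples than Aqp5. Of 10 luminal and milk secretory markers, 3 rose and 6 fell, and their sum was 2450 to 41194 CPM in the glands and 577 to 1092 CPM in the tumors. Krt8, a luminal keratin, rose (log2 fold change 1.74). Lalba, a milk protein, was at 0 in all 3 tumors and Wap, another, in 1 of them. Log2 Aqp5 minus the mean of these markers was -4.37, -4.15 and -6.95 in the glands and -3.67, -3.57 and -2.57 in the tumors, a difference of 1.89 (exact permutation p = 0.1, adjusted p = 0.18). Without gland M9232 the difference was 0.99, and by the median of the list it was -0.0090. Of 10 salivary and exocrine gland markers, 3 were in the table, of which 1 rose and 2 fell, with sums of 329 to 755 CPM in glands and 11.1 to 12.7 CPM in tumors. Relative to these 3, Aqp5 differed by 1.63 by the mean of the list and by -1.21 by its median. The part of these cells in the Aqp5 values was not tested.

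**Figure D3:**
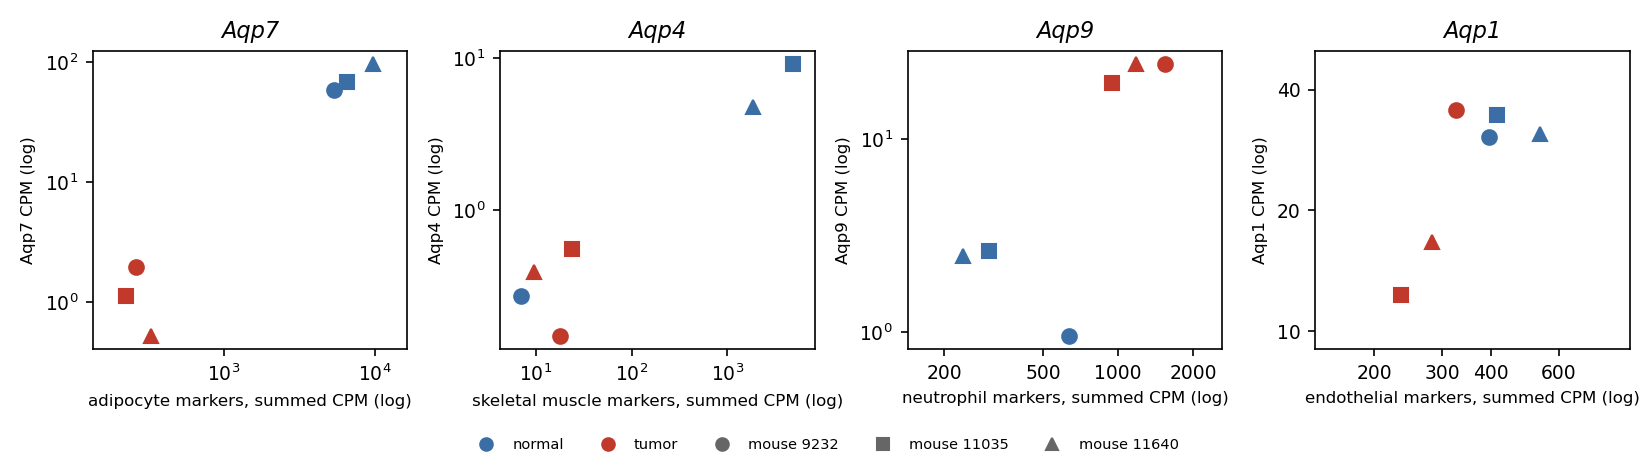
CPM of 4 aquaporins (vertical axes) against the summed CPM of a marker list in the same library (horizontal axes), all axes logarithmic, with glands in blue, tumors in red and a symbol shape for each mouse. The glands and tumors form separate groups for Aqp7 with adipocyte markers and Aqp9 with neutrophil markers. Gland M9232 sits with the tumors for Aqp4 with skeletal muscle markers (7.11 CPM). For Aqp1 with endothelial markers, tumor T9232 lies above every gland in Aqp1 (35.5 CPM) and below every gland in the marker sum (326 CPM).

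Aqp11, the distant member found in membranes of the endoplasmic reticulum, fell. It stood at 12.4, 18.8 and 8.48 CPM in the glands (61, 114 and 62 fragments) and at 1.12, 1.18 and 0.300 CPM in the tumors (6, 9 and 2 fragments). The lowest gland was far above the highest tumor, and tumor T9232 was under 3 fragments. The means were 13.2 ± 5.22 and 0.865 ± 0.491 CPM, so the gland mean was 15.3 times the tumor mean. The log2 fold change was -3.34 (SE 0.40, 95% interval -4.25 to -2.43, adjusted p = 2.83e-04). It was lower in each mouse, by similar amounts (-2.997, -3.52 and -3.49).

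The summed aquaporin level overlapped between the tissues, while the genes that made it up stood in another order. Summed over the 7 members and Aqp2, the level was 130.9, 155.9 and 101.6 CPM in the glands and 99.6, 112.3 and 130.8 CPM in the tumors. The sums overlapped, with means of 129 ± 27.2 and 114 ± 15.7 CPM (exact two-sided permutation p = 0.4). Aqp7 gave 52.3%, 61.1% and 57.1% of the aquaporin fragments in the glands, and Aqp3 gave 63.2%, 60.1% and 49.3% in the tumors. The Wilson 95% interval, for counting error only, was 48.5% to 56.2% for Aqp7 in gland M11035 and 45.9% to 52.6% for Aqp3 in tumor T9232, the lowest share in each tissue.

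The largest channel of one tissue was a minor one in the other. The share of Aqp7 was 56.8% ± 4.40 in glands and 1.03% ± 0.518 in tumors, and that of Aqp3 was 1.15% ± 0.634 and 57.5% ± 7.31. The share of Aqp9 was 1.52% ± 0.542 in glands and 19.9% ± 1.54 in tumors, and that of Aqp11 9.96% ± 1.91 and 0.8003% ± 0.496. For these 4 genes the tissues did not overlap, and the exact permutation p was 0.1, the smallest that 3 against 3 can give (adjusted p = 0.16), so the design could not reach the threshold. Aqp1 took 25.4% ± 5.12 of the fragments in glands and 18.1% ± 7.93 in tumors (exact permutation p = 0.3). In the tumors its share was 12.3%, 14.8% and 27.1%, highest in T9232. Aqp5 took 1.65% ± 0.220 and 1.64% ± 0.334 (exact permutation p = 1).

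**Figure D4:**
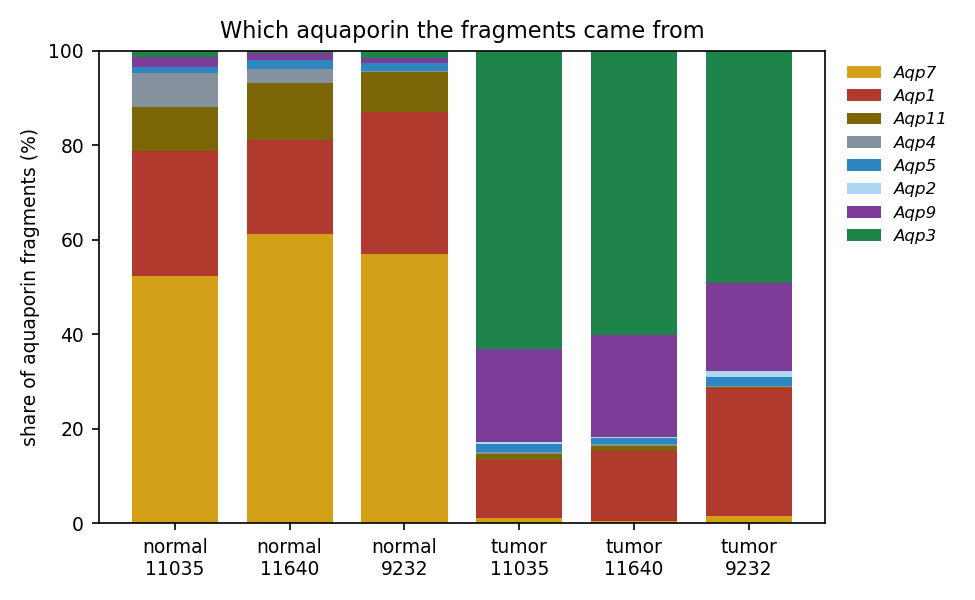
Share of the aquaporin fragments of each library that came from each gene (vertical axis, percent; 1 bar per library, not divided by transcript length). Aqp7 takes 52.3% to 61.1% of each gland bar and Aqp3 49.3% to 63.2% of each tumor bar, and the Aqp1 band is widest among the tumors in T9232 (27.1%).

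Levels of different genes were compared per kilobase of the longest annotated transcript. In the glands Aqp7 came first at 29.3 ± 7.61 CPM per kilobase, followed by Aqp1 at 12.2 ± 0.838 and Aqp11 at 10.01 ± 3.95, which overlapped. Aqp5 (1.38 ± 0.374), Aqp4 (0.924 ± 0.866), Aqp3 (0.780 ± 0.356) and Aqp9 (0.766 ± 0.351) followed, and each of these overlapped the next in the order. In the tumors Aqp3 came first at 36.8 ± 1.33 CPM per kilobase, and Aqp9 at 8.57 ± 1.03 and Aqp1 at 8.18 ± 4.70 overlapped behind it. Aqp5 stood at 1.22 ± 0.376, and Aqp11 (0.654 ± 0.371), Aqp7 (0.473 ± 0.283) and Aqp4 (0.0716 ± 0.0401) lay lower, with Aqp11 and Aqp7 overlapping. Aqp7, first in the glands, was next to last of the 7 in the tumors.

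Water channels work beside pumps and ion carriers, and a list of 24 such salt and water transport partners was all in the table. Of these, 4 rose, 4 fell and 16 were not called, with a median log2 fold change of -0.42, against 14.5% and 13.7% of all genes called. Among those that rose were Scnn1g, a subunit of the epithelial sodium channel (log2 fold change 1.32), and Slc12a4, a potassium-chloride cotransporter (1.20). Among those that fell were Slc4a4, a sodium-bicarbonate cotransporter (-4.66), and Dtna, a dystrophin-associated protein (-3.77). Slc12a2, the sodium-potassium-chloride cotransporter of secretory epithelia, stood at 245 ± 47.7 and 150 ± 17.7 CPM (-0.70, adjusted p = 0.0136), under the fold threshold. Trpv4, a cation channel that responds to cell swelling, had a log2 fold change of -0.05 (adjusted p = 0.921). Without gland M9232, 5 of the 24 partners were called higher and 4 lower.

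The genes nearest in pattern to each aquaporin were taken by Pearson's r of log2(CPM + 0.5) over the 6 libraries among 14711 genes. These 6 points form separate tissue groups, and several genes that differ strongly between the tissues reach a high r, so the values are a description. The nearest to Aqp3 were Stfa3, Prelid1 and Dsg3, a desmosomal cadherin of squamous epithelium (r = 0.999). The nearest to Aqp7 were Smcr7, Nudt18 and Rad51l3, to Aqp9 P4ha2, Prom2 and Hr, and to Aqp11 Ccdc47, Prkca and Shank3. Nearest to Aqp4 were Myh1, Hdhd2 and Ano5. Myh1, a fast muscle myosin (r = 0.997), stood at 338, 79.1 and 0.821 CPM in the glands and 1.67, 0.524 and 0.300 CPM in the tumors. Nearest to Aqp1 were 4930578C19Rik, Acvrl1, an endothelial receptor (r = 0.983), and Exoc7, and to Aqp5 Lmbr1, Ly6c1 and Ust, with a highest r of 0.972.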

How the data were processed

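RNA-Seq libraries of 3 tumors and 3 adjacent glands were grouped by their titles. According to the methods, read pairs were mapped to mm9 with TopHat2 (2.0.3), fragments were counted per RefSeq gene with htseq-count (HTSeq 0.5.3p9), and genes under 10 fragments in all samples were removed. The strand of fragments is not stated to have been used. The authors deposited a normalized signal, CPM on the effective library size of edgeR (3.6.1). Division by the smallest step gave whole fragments for 100% of the values (tolerance 0.01), 0 sample columns were left out, and the lowest total of a gene was 11 fragments.

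All 15280 genes were tested with limma 3.58.1 (R 4.3.3, trend) with two-sided tests of log2(CPM + 0.5), and p-values were adjusted by Benjamini and Hochberg's method across the table. Folds are on this scale, which understates low genes. The design took the values as CPM on the effective library size, and the plain library size was an alternative. Each mouse gave 1 gland and 1 tumor. The correlation of their deviations from the tissue means was 0.107, 0.151 and 0.0168 (14712 genes). The mouse entered as a block in an alternative, since the methods do not state a block. Other alternatives were pseudocounts of 0.1 and 1, a minimum of 1 CPM in 3 libraries, other scalings, edgeR 4.0.16 and DESeq2 1.42.0 on recovered fragments, shortest transcripts, list medians and leaving out each library. The fits were tested on simulated data. Positions and lengths came from GENCODE annotation of mm9, and 3 promoter motifs were searched in RefSeq windows of another build (GRCm38.p6), so no coordinates were shared between them.

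The members, lists and tests were chosen with earlier results of these data known. Named were all aquaporins, the listed genes with the largest changes or a known tie to an aquaporin, and the 3 genes nearest in pattern. Each tissue of each mouse has 1 library, so p-values rest on the spread between libraries. In that spread, differences between mice cannot be told apart from tissue sampling or library preparation. Intervals of shares and pooled ratios cover counting error only. Some members of the list of transport partners are counted but not reported by name here.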

Additional observations from a re-analysis of the deposited data

How the results depend on the processing

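The calls of Aqp3, Aqp7, Aqp9 and Aqp11 held under all 14 alternatives, with log2 fold changes of 4.83 to 5.58, -5.97 to -5.11, 2.92 to 3.54 and -3.94 to -2.91. Aqp5 was called in 0 of 14 and Aqp1 in 1 of 14. Aqp4 was called in 4 of the 13 that could test it: with the mouse as a replicate block (adjusted p = 0.0359), by edgeR (-3.61, adjusted p = 0.0309), by DESeq2 (-3.69, adjusted p = 0.00247) and without gland M9232. The minimum CPM removed it. The paired fit changed no other member's call, and raised the skeletal muscle markers called lower from 3 to 5. It also raised the salt and water transport partners called higher from 4 to 5 and those called lower from 4 to 5. The exact sign-flip test over 3 pairs cannot give a p below 0.25. No scaling moved the median of all genes by more than 0.1.

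By the shortest transcript, the level of Aqp4 was 5.57 (glands) and 0.431 (tumors) CPM per kilobase, and that of Aqp9 1.18 and 13.3. By the median of the list, Aqp5 relative to luminal markers was -0.0090 and to salivary markers -1.21. With each library left out in turn, the difference ranged from -0.47 to 0.10 for Aqp1 relative to endothelial markers, from -0.87 to 0.23 relative to Alas2, and from -0.34 to 0.66 for Aqp7 relative to adipocyte markers. The log2 fold change of Aqp5 ranged from -0.34 to 0.024, and the difference of its share from -0.17 to 0.17 percentage points. Endothelial markers called lower ranged from 1 to 3 (1 without M11640 or T11035), macrophage markers higher from 1 to 2 (2 without M9232 or T11035) and lower from 0 to 1 (1 without M11035 or T9232), and skeletal muscle markers lower from 0 to 10 (10 without M9232). Luminal and milk secretory markers called lower ranged from 4 to 6 (4 without T11640 or T9232). Transport partners called higher ranged from 3 (without M11640) to 5 (without M9232). The cause of these changes was not tested. Depth limits Aqp4 in tumors and gland M9232, and Aqp11 in tumor T9232, all at or under 3 fragments.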

Other observations

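Aqp2, the vasopressin-regulated water channel of the kidney collecting duct, lies next to Aqp5 on chromosome 15 (mm9, 99409487 to 99414976), with a gap of 6303 bases and 0 annotated genes between. It was at 0 in all 3 glands and held 2, 3 and 11 fragments in tumors T11035, T11640 and T9232 (0.372, 0.393 and 1.65 CPM). With the gland group set at 3 fragments in all, the tumors' pooled level was 4.96 times as high. This ratio leaves out counting error in the tumors and the spread between mice. Of the 16 tumor fragments, 11 came from T9232. It did not pass limma's test (adjusted p = 0.0665), and it did by edgeR (adjusted p = 0.0434) and DESeq2 (adjusted p = 0.0289) on recovered fragments and by limma with a pseudocount of 0.1.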
